A study of Mus musculus with 48 samples.

Results

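The SLAM family receptors are encoded side by side on mouse chromosome 1, and the accessible chromatin of 6 of them is described here: Slamf6 and its neighbours Slamf1, Cd84, Cd48, Slamf7 and Ly9. ATAC-seq, in which the Tn5 transposase marks open DNA, gave a signal at 53868 peaks, and 37 of them were assigned to these genes, 6 to Slamf6, 10 to Slamf1, 3 to Cd84, 5 to Cd48, 8 to Slamf7 and 5 to Ly9. Overlap with a protein-coding gene body decided the assignment, and a peak outside any body went to the nearest one within 100 kb. By position, 23 peaks lay in gene bodies and 14 outside, at most 16565 bp away. The assignment used positions and no measured value.

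The cells were CD8+ T cells from OT-1 mice that carried CD45.1 and expressed Cas9. Their receptor recognises an ovalbumin peptide, and they were recovered 15 days after inoculation of B16-OVA, a melanoma line that makes ovalbumin. All groups carried Cas9 and a lentiviral vector with a single guide RNA and an ametrine reporter, controls included, and were transferred into young or aged mice before the tumour. Host age was taken from the letter in each title, A for aged and Y for young. The guide groups were labelled Zfp219 knockout, Dusp5 knockout and OTC control; whether each guide had cut its target was not tested, because accessibility does not report it. States were sorted on surface protein: Tprog (labelled progenitor exhausted) was Slamf6+Tim-3-, Ttran (transitory, effector-like) Slamf6+Tim-3+, Tterm (terminally exhausted) Slamf6-Tim-3+ and Ttad (age-associated dysfunctional) Slamf6-Tim-3-. A difference between states at Slamf6 is therefore one between populations sorted on its own product. Aged hosts gave 24 libraries, 2 for each of the 3 guides in each of the 4 states, and young hosts gave 24, with 2 for each guide in Tprog and 3 in Ttran and in Tterm; the Ttad libraries analysed here all came from aged hosts. Each library was a pool of cells of several mice, so p-values measure the spread between pools. The labels do not record which mice went into which pool, or whether the states of a guide came from the same mice. Separate libraries may therefore share mice, and the fit takes them as independent. Because these are bulk libraries, fewer cells with an open site and a lower accessibility in each cell cannot be told apart.

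SLAM receptors are cell-surface proteins of lymphocytes and other blood cells. Most of them bind another copy of themselves on a neighbouring cell, and their tails recruit the small adapter SAP, encoded by Sh2d1a, which brings the kinase Fyn; without SAP, phosphatases can bind instead. Slamf6, also called Ly108, marks the progenitor-like fraction of exhausted CD8 T cells. CD48 differs in being a membrane-anchored ligand without a signalling tail, bound by CD2 and by CD244.

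The libraries held between 5638413 and 29942755 reads in peaks (median 14691505), and the 37 peaks held 0.0641% to 0.0879% of them. The T cell markers Cd3d, Cd3e, Cd3g, Cd8a, Cd8b1, Thy1 and Lck all had peaks, 7 of 7, with a summed signal of 7641 to 13176 per library, or 6987 to 9141 without Thy1. Of the markers of other cells, Ms4a1, Cd79a, Ncr1, Csf1r, Lyz2, Dct, Tyrp1, Sox10 and Foxp3 had no peak in their bodies, and Klrb1c had 0 to 33.1. Cd4, listed together with Foxp3, had a signal of 142.4 to 517.4 per library (median 356.6). The B cell gene Pax5 had 279.9 to 672, the myeloid genes with a peak (3 of 5) a sum of 732 to 1320, and the melanoma genes with a peak (3 of 6) a sum of 720 to 1406. The part of these cells in the results was not tested.

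The start regions show what the accessible promoters look like in sequence. RefSeq sequence (GRCm38.p6) was matched for 5 of the 6 genes; the 250 bases before the start are printed 5′ to 3′ on the strand of the gene, with capitals for CTTTGA (TCF/LEF), TGANTCA (AP-1), TGTGGT (RUNX), AGGAAG (ETS), GGTGTGA (T-box), and CAGCTG and CACCTG (E-boxes) on either strand. In Cd48 the RUNX and T-box letters overlap. Slamf6 lies at chr1:171917212-171917461 on the plus strand, Cd48 at chr1:171681742-171681991 (plus), Slamf1 at chr1:171766882-171767131 (plus) and Slamf7 at chr1:171649000-171649249 (minus). Of the 5 matched genes, these have a peak over the start. Ly9 was not matched, so a peak over its start could not be looked for.
Slamf6: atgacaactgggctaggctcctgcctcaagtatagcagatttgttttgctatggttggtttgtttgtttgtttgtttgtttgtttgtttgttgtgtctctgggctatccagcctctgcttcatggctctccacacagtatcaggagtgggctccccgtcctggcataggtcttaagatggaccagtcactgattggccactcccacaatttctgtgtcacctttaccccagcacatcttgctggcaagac
Cd48: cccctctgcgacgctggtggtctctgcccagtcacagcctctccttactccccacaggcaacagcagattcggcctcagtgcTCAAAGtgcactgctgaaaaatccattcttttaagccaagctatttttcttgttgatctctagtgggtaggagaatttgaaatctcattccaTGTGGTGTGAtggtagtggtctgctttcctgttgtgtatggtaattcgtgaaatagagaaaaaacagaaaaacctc
Slamf1: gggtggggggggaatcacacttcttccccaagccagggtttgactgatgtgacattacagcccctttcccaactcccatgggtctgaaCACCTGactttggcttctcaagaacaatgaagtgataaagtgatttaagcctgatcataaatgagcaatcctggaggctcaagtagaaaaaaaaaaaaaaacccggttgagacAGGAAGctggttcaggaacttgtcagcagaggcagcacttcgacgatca
Slamf7: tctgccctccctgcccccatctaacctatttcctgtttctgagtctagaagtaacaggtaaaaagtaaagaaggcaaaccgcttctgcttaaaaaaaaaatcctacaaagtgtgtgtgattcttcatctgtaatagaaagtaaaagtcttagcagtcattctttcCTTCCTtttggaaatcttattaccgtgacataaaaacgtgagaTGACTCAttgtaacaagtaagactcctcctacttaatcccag

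The Slamf6 stretch held none of these letter strings, nor GGAAA (the NFAT core) or GGGGG, which were also searched. The Cd48 stretch held a TCF/LEF, a RUNX and a T-box match, Slamf1 an ETS and an E-box match, and Slamf7 an ETS and an AP-1 match. Among 32851 promoters of the same length, 13.8% held CTTTGA, 6.75% TGANTCA, 14.05% TGTGGT, 29.5% AGGAAG, 3.33% GGTGTGA, 13.001% CAGCTG, 17.2% CACCTG, 55.6% GGAAA and 47.2% GGGGG. A match describes letters and not a bound site.

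Slamf6 has 6 peaks, and distances are counted from its start to the middle of each peak. The strongest, at -1.44 kb (chr1:171915612-171916427), lies upstream, 1031 bp outside the gene. A peak at 0.58 kb (chr1:171917325-171918757) covers the start, and peaks at 3.92 kb (chr1:171920836-171921932) and 21.8 kb (chr1:171938640-171939868) lie in the gene body. The last 2, at 46.3 kb (chr1:171963575-171964042) and 48.6 kb (chr1:171965523-171966661), lie beyond the end of the gene, 14617 and 16565 bp away. Signal is given as normalized reads, that is reads divided by a size factor of the library. Per kilobase of peak, the -1.44 kb peak averaged 423 normalized reads over the 48 libraries, against 807 at the peak in the Slamf7 body 5.17 kb from its start, 702 at the peak 1988 bp past the end of Slamf7, 414 at the Cd84 peak at 5.77 kb and 365 at the first Ly9 body peak.

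Slamf6 was the member that varied most across the 21 groups. Summed over its 6 peaks, the signal ran from 603 ± 35.2 (SD, n = 3) in young Zfp219 Tterm to 2154 ± 8.78 (SD, n = 2) in aged OTC Tprog, a ratio of the means of 3.57. The sums of the other members had ratios of highest to lowest mean of 1.64 (Ly9), 1.48 (Slamf1), 1.38 (Cd84), 1.33 (Cd48) and 1.17 (Slamf7). By single peaks, the ratio was 9.12 at 46.3 kb, 6.29 at 48.6 kb, 4.32 at 3.92 kb, 4.15 at -1.44 kb, 3.42 at 21.8 kb and 2.72 over the start. Over 48971 peaks at least as strong as the weakest of the 37, the median ratio was 2.32 and the 95th percentile 7.98. Beside Slamf6, only the Slamf1 peak at 15.5 kb (4.23), the Cd48 peak at -9.08 kb (3.83), and the Slamf7 peaks at -7.40 kb (6.26) and -12.7 kb (3.23) had a ratio above 3.

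Ordered by the Slamf6 sum, the 6 Tprog groups came first, from 2154 in aged OTC to 1812 in aged Zfp219. Aged Ttran followed with Dusp5 (1700.5 ± 51.6 (SD, n = 2)) and OTC (1654 ± 71.1 (SD, n = 2)), then aged Ttad with Dusp5 (1534 ± 16.6 (SD, n = 2)) and OTC (1422 ± 135 (SD, n = 2)). Young Ttran stood at 1345 ± 15.2 (SD, n = 3) with Dusp5, 1207 ± 57.9 (SD, n = 3) with OTC and 1169 ± 75.2 (SD, n = 3) with Zfp219. Between the first 2 of these lay aged Zfp219 Ttran (1257 ± 92.2 (SD, n = 2)), and aged Zfp219 Ttad came just after (1096 ± 99.7 (SD, n = 2)). Aged Tterm had 1027 ± 90.7 (SD, n = 2) with OTC, 948 ± 68.3 (SD, n = 2) with Dusp5 and 843 ± 76.3 (SD, n = 2) with Zfp219. The 3 young Tterm groups came last, with 681 ± 17.4 (SD, n = 3), 633 ± 60.1 (SD, n = 3) and 603 ± 35.2 (SD, n = 3) for OTC, Dusp5 and Zfp219. Of the 20 steps between neighbours in this order, 11 had libraries that overlapped. The remaining 9 did not overlap, but most are steps within a state, and only those between states, ages or guides tested below are read as differences.

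**Figure D1:**
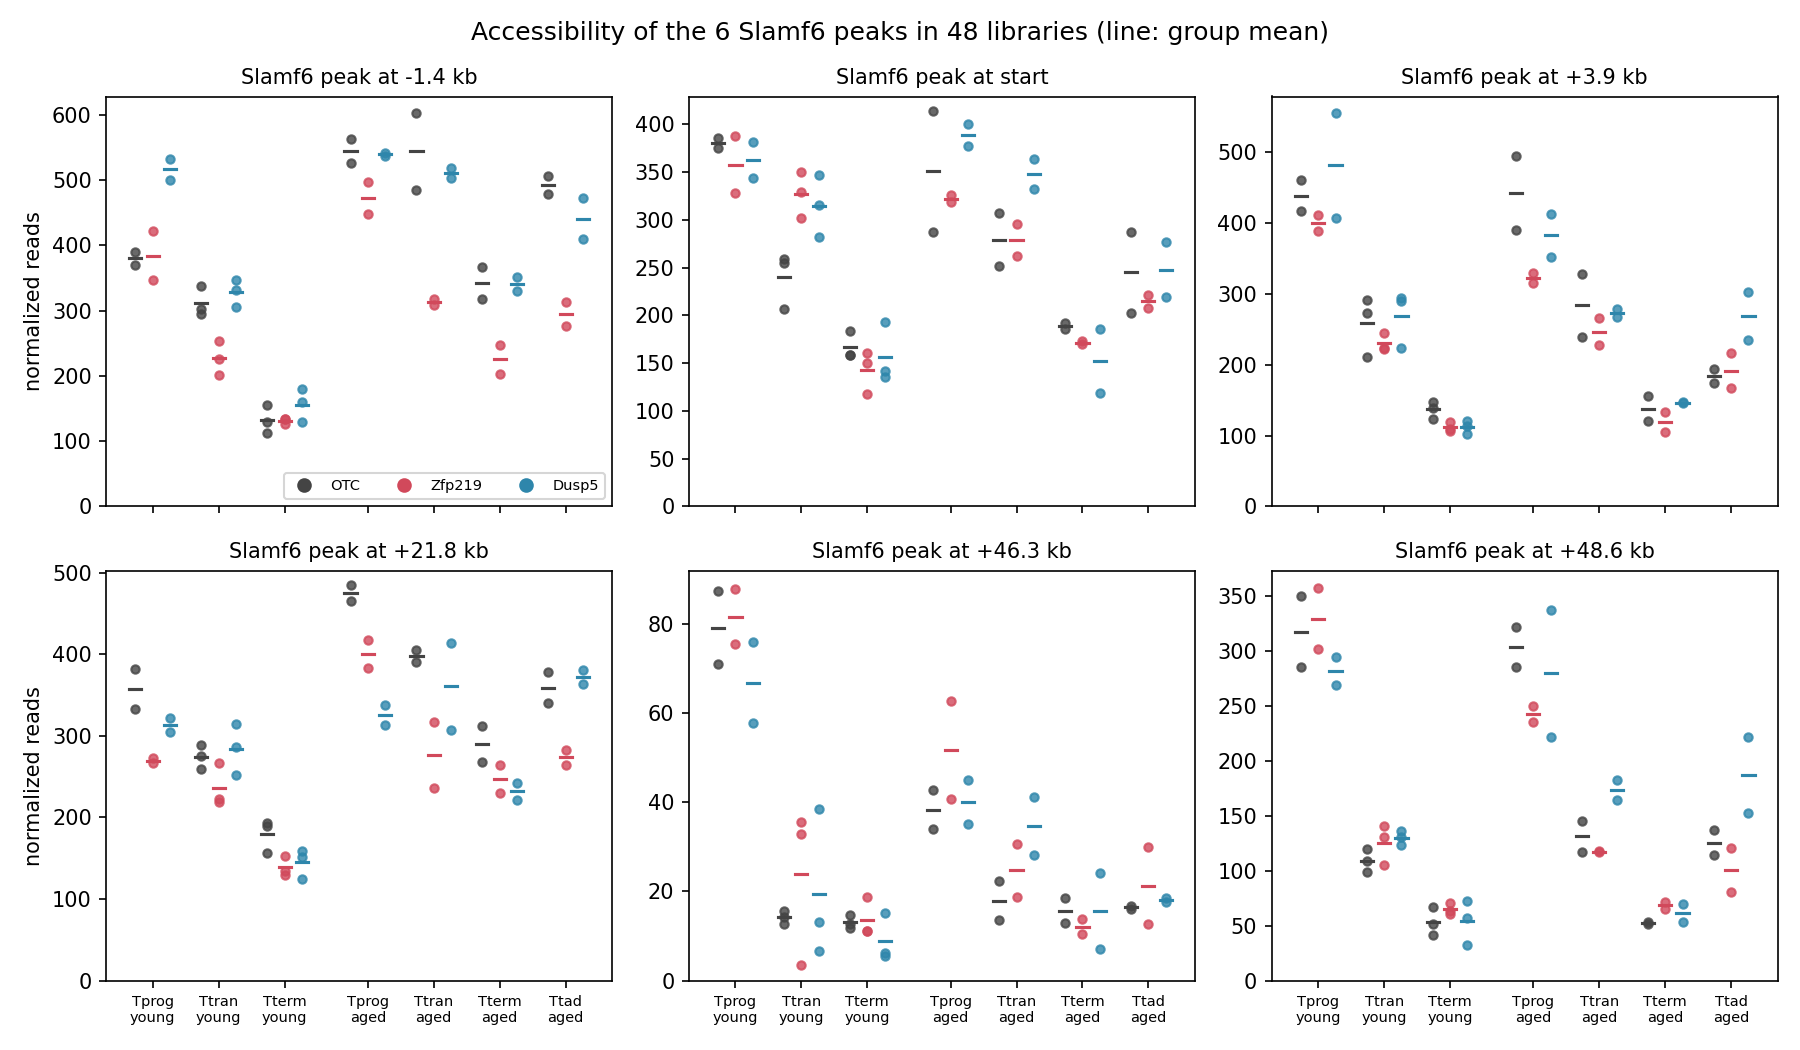
Normalized reads (vertical axis, linear, from 0) at the 6 Slamf6 peaks in each of 48 libraries (points), by state and host age, with the group mean as a line and the guide by colour. At 48.6 kb Tprog stands above Ttran and Tterm in both ages, while at -1.44 kb and 21.8 kb the mean of each aged group also stands above that of the young group of the same state and guide.

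The sorted states differed most at Slamf6. In control cells of aged hosts, 5 of 6 Slamf6 peaks were higher in Tprog than in Tterm and none was lower, and in young hosts all 6 were higher. The peak at 48.6 kb read 322 and 286 in the aged Tprog libraries and 53.4 and 51.3 in the aged Tterm libraries. In young hosts it read 350.3 and 285 in Tprog and 51.2, 66.8 and 41.1 in Tterm. Every Tprog library was thus above every Tterm library, and the log2 fold change, taken on log2(normalized reads + 1), was 2.51 ± 0.25 (SE, adjusted p = 8.4e-14) in aged and 2.58 ± 0.23 (SE, adjusted p = 2.0e-16) in young hosts. At 3.92 kb the aged Tprog libraries read 494 and 390.4 against 119.8 and 156 in Tterm, and the young ones 416 and 460.3 against 124, 139 and 148. The log2 fold changes there were 1.68 ± 0.18 (SE, adjusted p = 2.3e-12) and 1.67 ± 0.17 (SE, adjusted p = 3.3e-14).

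The peak over the start followed the same order with a smaller change. It read 288 and 414 in aged Tprog and 185 and 192 in aged Tterm, and 386 and 375 against 159, 158 and 183 in young hosts. The changes were 0.87 ± 0.18 (SE, adjusted p = 1.1e-04) and 1.19 ± 0.16 (SE, adjusted p = 6.9e-09). At -1.44 kb the change was 0.67 ± 0.15 (SE, adjusted p = 3.6e-04) in aged and 1.53 ± 0.14 (SE, adjusted p = 2.7e-16) in young hosts, and at 21.8 kb 0.71 ± 0.16 and 0.99 ± 0.15. The weak peak at 46.3 kb, with 2 to 102 reads in a library, rose by 2.51 ± 0.56 (SE, adjusted p = 2.5e-04) in young hosts. In aged hosts its change of 1.25 ± 0.61 (SE, adjusted p = 0.15) did not pass the test.

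The count of calls is read against the rest of the genome. In aged OTC cells 14 of the 37 peaks were called, 9 higher and 5 lower in Tprog, where 20.1% of all 53868 peaks were called at an adjusted p under 0.05 by limma. In young OTC cells 11 were called, 9 higher and 2 lower, against 26.5% of all peaks, which is close to the share of the 37. The median log2 fold change of the 37 peaks was 0.22 in aged and 0.22 in young hosts, against 0.01 and 0.01 over all peaks. It was 1.06 and 1.60 over the 6 Slamf6 peaks, and 0.06 and 0.15 over the 31 peaks of the other members. The aged count fell to 8 without the first aged OTC Tprog library and to 9 without the second aged OTC Tterm library; the 5 Slamf6 calls were kept without either.

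Tprog stood above Tterm at Slamf6 with the other guides as well. With Zfp219, all 6 Slamf6 peaks were higher in Tprog than in Tterm in aged hosts (14 of the 37 peaks called, 18.8% of all) and in young hosts (15, 26.8%). With Dusp5 the count was 5 in aged hosts (15 of the 37, 22.9% of all) and 6 in young hosts (15, 29.8%). Over the 6 combinations of age and guide, which share no libraries, the change at 48.6 kb ranged from 1.82 to 2.58, at 3.92 kb from 1.38 to 2.08, over the start from 0.87 to 1.38, at 21.8 kb from 0.49 to 1.11 and at -1.44 kb from 0.66 to 1.73. Each of these 5 peaks was called in all 6, and the 46.3 kb peak in 4.

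In Slamf1, Cd48 and Slamf7, peaks of one gene moved in opposite directions. Between OTC Tprog and Tterm the sums over Slamf1 and over Cd48 were not called. Slamf1, a self-binding co-receptor whose human form is an entry receptor for measles virus, had a body peak at 15.5 kb that was higher in Tprog in all 6 combinations, by 1.03 to 1.97. In aged OTC cells it read 226 and 199 in Tprog and 85 and 97.1 in Tterm, and in young ones 279 and 296 against 113, 105 and 82.1. The changes were 1.21 ± 0.22 (SE, adjusted p = 1.2e-05) and 1.52 ± 0.20 (SE, adjusted p = 2.6e-09), with no overlap between the groups. The peak at -4.59 kb of the same gene was lower in Tprog in all 6, with log2 changes of -0.57 to -0.29, and read 437 and 454 against 653 and 668 in aged OTC cells. The change there was -0.57 ± 0.12 (SE, adjusted p = 2.1e-04) in aged and -0.39 ± 0.11 (SE, adjusted p = 0.005) in young hosts. The young call was lost without the first young OTC Tprog library (-0.47 to -0.30 over the left-out libraries). A Slamf1 peak at 4.46 kb was also higher in Tprog, by 0.51 ± 0.13 (SE, adjusted p = 0.002) and 0.55 ± 0.12 (SE, adjusted p = 1.3e-04) in OTC cells of aged and young hosts, and was called in 4 of 6 combinations. The peak over the Slamf1 start was called in none, with changes of -0.16 to 0.12.

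Cd48 showed the same split. Its body peak at 2.98 kb was higher in Tprog in all 6 combinations, by 0.41 to 0.84, reading 473 and 409.9 against 345 and 263 in OTC cells of aged hosts and 309 and 329 against 261, 235 and 222 in those of young hosts. The OTC changes were 0.55 ± 0.16 (SE, adjusted p = 0.007) and 0.41 ± 0.14 (SE, adjusted p = 0.024). Its upstream peak at -4.36 kb was lower in Tprog in 4 of 6 combinations, with a log2 change of -0.65 ± 0.22 (SE, adjusted p = 0.026) in aged OTC cells, while the start peak was called in none. Leaving out 1 library ended several of these OTC calls: Cd48 at 2.98 kb in aged hosts without the first Tprog or the second Tterm library (0.35 to 0.74), and in young hosts without any 1 of 4 of the 5 libraries (0.36 to 0.48), the exception being the first Tterm library. Cd48 at -4.36 kb was not called without the first Tprog or either Tterm library (-0.90 to -0.40).

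Slamf7, a receptor of activated lymphocytes, carried the strongest of the 37 peaks, 1988 bp past its end (chr1:171627884-171630415), at the 99.4th percentile of all peaks by mean. This peak was lower in Tprog in 5 of 6 combinations, reading 1608 and 1594 in aged OTC Tprog and 2109 and 2062 in Tterm. Its change was -0.38 ± 0.07 (SE, adjusted p = 7.3e-06) in aged and -0.16 ± 0.06 (SE, adjusted p = 0.041) in young OTC cells; the young call was lost without the second Tprog, the second Tterm or the third Tterm library (-0.22 to -0.11). With quantile normalization the aged change was -0.23, still called. Other Slamf7 peaks went the other way: those at -3.92 kb and -12.7 kb were each called higher in Tprog in 3 of 6 combinations, with changes over the 6 of 0.23 or more and of 0.42 to 1.07, and those at -7.40 kb and 1.76 kb in 1 each. The peak over the Slamf7 start of the printed sequence was called in none of the 6. That start lies inside the gene body, which runs up to 171653037 on the minus strand. The -3.92 kb peak (chr1:171652574-171653258) covers this 5′ end of the body. Ly9, another self-binding receptor, had a first body peak (chr1:171604543-171605125) called lower in Tprog with OTC (-0.59 ± 0.19 (SE, adjusted p = 0.02)) and Zfp219 in aged hosts and in no other combination. Its strongest peak (chr1:171606688-171607692) was called in none. Cd84, a self-binding receptor also found on B cells and platelets, had 1 peak called, at -11.9 kb, in 2 combinations. Its strongest peak, at 5.77 kb, changed by -0.22 to 0.19 and was called in none.

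**Figure D2:**
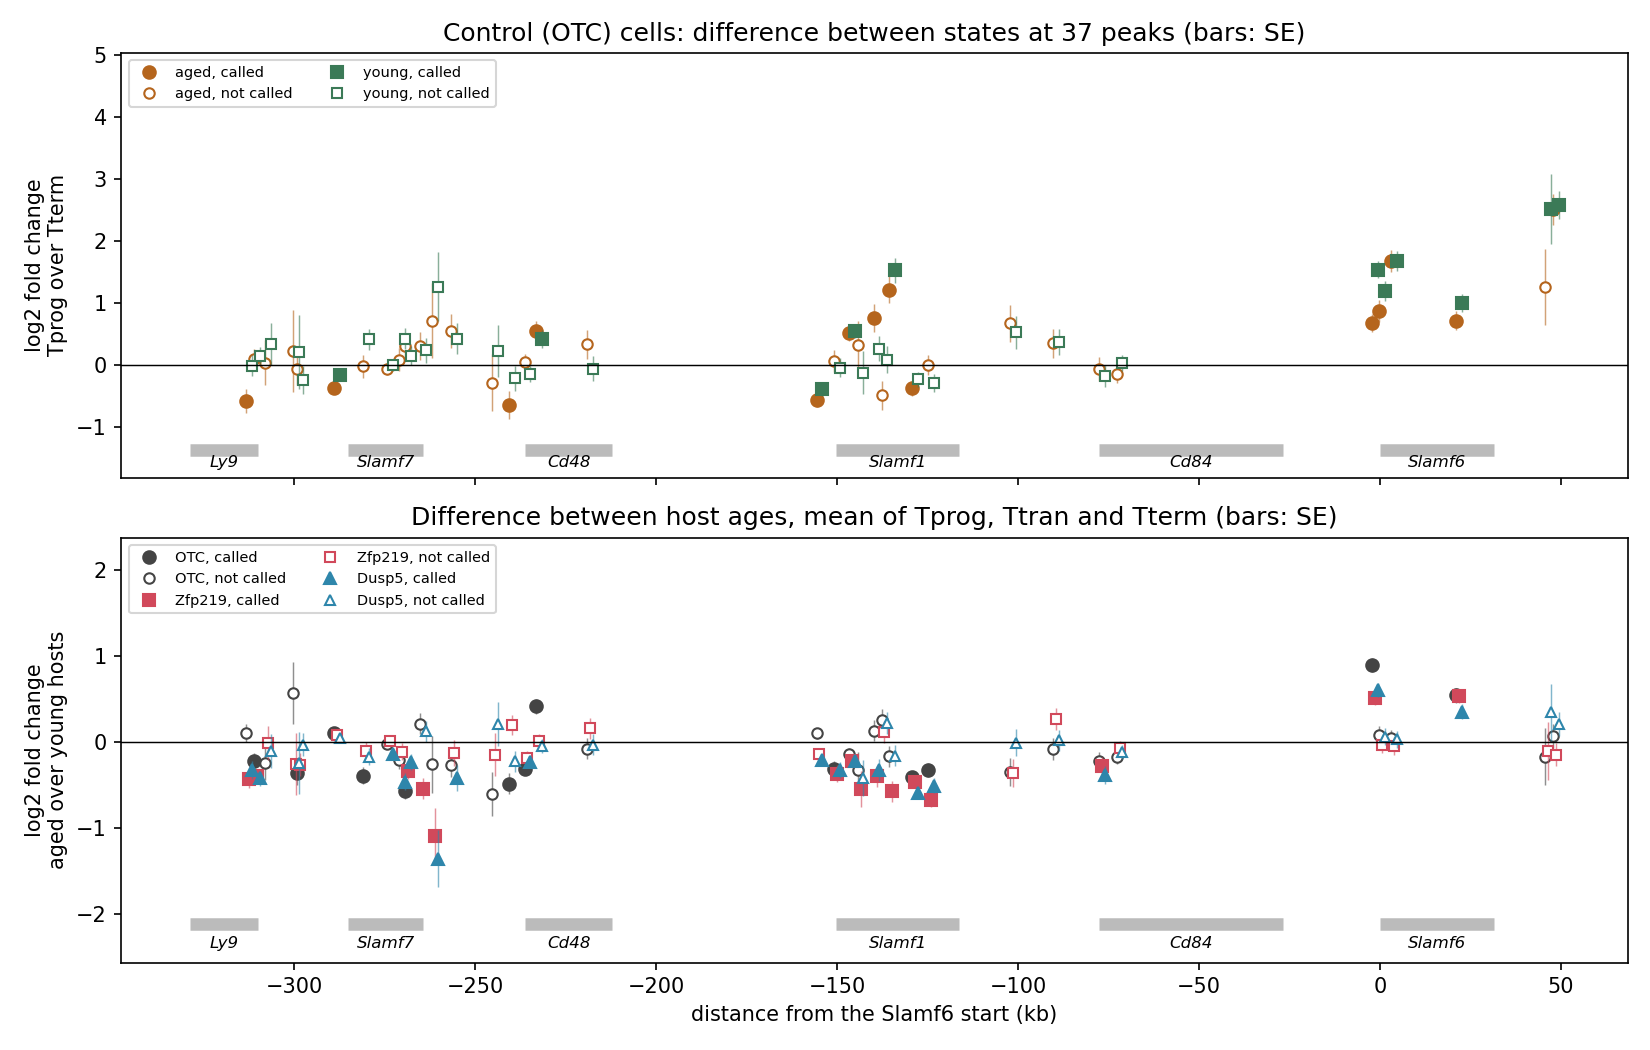
Log2 fold change (vertical axis, bars: SE) at the 37 peaks by distance from the Slamf6 start in kb (horizontal axis), Tprog over Tterm in OTC cells above and aged over young hosts below; filled symbols passed the test and grey bars are gene bodies. The rises in Tprog cluster at Slamf6 with the Slamf1 peak at 15.5 kb beside falls in neighbouring peaks, and the called rises in aged hosts are Slamf6 at -1.44 kb and 21.8 kb with all 3 guides and, with OTC, 1 Cd48 and 1 Slamf7 peak as well.

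Ttran cells lay between Tprog and Tterm at most Slamf6 peaks. In OTC cells, Ttran was above Tterm at 3 of 6 Slamf6 peaks in aged hosts (5 of the 37 peaks called, 3.22% of all) and at 5 of 6 in young hosts (7 called, 8.38%). Ttran was below Tprog at 2 of 6 in aged (7 of the 37 called, 17% of all) and 4 of 6 in young hosts (9 called, 16.9%). At 48.6 kb the OTC Ttran libraries read 117 and 145 in aged hosts and 120.1, 98.5 and 109 in young hosts, apart from both other states. At -1.44 kb, aged Ttran read 603 and 485, on both sides of the Tprog libraries at 527 and 562, with a difference of -0.01 ± 0.15 (SE, adjusted p = 0.98) from Tprog. The -1.44 kb peak was higher in Ttran than in Tterm by 0.66 ± 0.15 (SE, adjusted p = 0.005) in aged and 1.24 ± 0.12 (SE, adjusted p = 4.2e-13) in young hosts.

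Ttad cells, sorted as negative for Slamf6 protein, nevertheless had more accessible chromatin at 2 Slamf6 peaks than Tterm cells, which are negative as well. At -1.44 kb the aged OTC Ttad libraries read 478 and 506, the Tterm libraries 318 and 367 and the Tprog libraries 527 and 562. Ttad was above Tterm by 0.53 ± 0.15 (SE, adjusted p = 0.017) and differed from Tprog by -0.15 ± 0.15 (SE, adjusted p = 0.67). The call against Tterm was lost without either Ttad library or without the first Tterm library (0.42 to 0.63). For scale, the Slamf6-positive young OTC cells read 389.7 and 369.6 in Tprog and 302, 294 and 338 in Ttran, all below both aged Ttad libraries. This last comparison crosses host ages, and aged OTC Tterm (318 and 367) also lay above young OTC Tterm (112 to 155) at this peak. Without young Ttad libraries, age and state cannot be told apart in it. At 48.6 kb Ttad read 114 and 137, higher than Tterm by 1.24 ± 0.25 (SE, adjusted p = 3.5e-04) and below Tprog with a log2 change of -1.27 ± 0.25 (SE, adjusted p = 2.9e-04). At 3.92 kb it read 174 and 193, below Tprog with a log2 change of -1.25 ± 0.18 (SE, adjusted p = 7.0e-07), with 0.42 ± 0.18 (SE, adjusted p = 0.16) against Tterm. The aged OTC Ttad group also had the highest summed signal of the T cell markers, a mean of 13123 against a median over libraries of 9024. That excess lay in 1 marker, Thy1, with a mean of 5154 in this group and a range of 527 to 5320 over libraries (median 793). It was not limited to this group, since the group next highest in Thy1 had a mean of 3620. Without Thy1 the other 6 summed to 7969 in aged OTC Ttad, against a median of 8050.4 over libraries. The part of the Thy1 signal in these differences was not tested.

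Across the 37 peaks, 3 were called between aged OTC Ttad and Tterm, 2 higher and 1 lower, where 7.28% of all peaks were called; the lower one was the strong Slamf7 peak (-0.23 ± 0.07 (SE, adjusted p = 0.023)), whose call was lost without any 1 of the 4 libraries (-0.25 to -0.21). The count was 1 without the first Ttad, the second Ttad or the first Tterm library. Against Tprog 3 were called, all lower in Ttad (6.55% of all peaks), the third being Slamf1 at 15.5 kb (-0.83 ± 0.22 (SE, adjusted p = 0.011)). Against Ttran 4 were called, all lower in Ttad (7.74%), among them Slamf6 at 3.92 kb (-0.61) and Slamf7 at -3.92 kb (-0.89). With the other guides, Ttad exceeded Tterm at 1 of 6 Slamf6 peaks with Zfp219 (1 of the 37, 1.75% of all) and at 4 of 6 with Dusp5 (7 of the 37, 7.34%). Ttad was below Tprog at 5 of 6 Slamf6 peaks with Zfp219 (6 of the 37 called, 7.65% of all) and at 1 of 6 with Dusp5 (3 called, 7.33%). The guide effects in Ttad were compared with those in the other aged states, and no peak of the 37 was called for either Zfp219 (0.052% of all) or Dusp5 (0.169%) by limma; 4 and 3 of the 37 had an unadjusted p under 0.05, and edgeR called 0 in both.

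Host age separated the Slamf6 peaks into 2 sets. At -1.44 kb and 21.8 kb the aged group mean was above the young mean in all 9 combinations of state and guide, by ratios of 1.04 to 2.60 (median 1.56) and 1.04 to 1.78 (median 1.45). At the start the ratio was 0.853 to 1.20, at 3.92 kb 0.795 to 1.31, at 48.6 kb 0.738 to 1.34 and at 46.3 kb 0.484 to 1.78, on both sides of 1 at each of these 4 peaks. In OTC Tterm the -1.44 kb peak read 318 and 367 in aged and 155, 129 and 112 in young hosts, the largest ratio of means among the control states (2.60, against 1.75 in Ttran and 1.43 in Tprog). In OTC Ttran it read 603 and 485 against 302, 294 and 338, and in OTC Tprog 527 and 562 against 389.7 and 369.6. No aged library overlapped a young library of the same state in these comparisons.

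Averaged over Tprog, Ttran and Tterm, the OTC difference of aged over young at -1.44 kb was 0.90 ± 0.08 (SE, adjusted p = 2.6e-16), and at 21.8 kb 0.55 ± 0.09 (SE, adjusted p = 1.7e-07). The other 4 Slamf6 peaks differed by 0.09 ± 0.10 (SE, adjusted p = 0.52) over the start, 0.04 ± 0.10 at 3.92 kb, -0.17 ± 0.33 at 46.3 kb and 0.07 ± 0.14 at 48.6 kb, none called. With the other guides, whose libraries are separate from those of the controls, the difference at -1.44 kb was 0.52 ± 0.08 (SE, adjusted p = 3.6e-07) with Zfp219 and 0.61 ± 0.08 (SE, adjusted p = 3.1e-09) with Dusp5. At 21.8 kb it was 0.54 ± 0.09 (SE, adjusted p = 5.5e-07) and 0.36 ± 0.09 (SE, adjusted p = 7.7e-04). By state, the OTC difference at -1.44 kb was called in Tprog (0.52), Ttran (0.80) and Tterm (1.38). The file headers number the aged and the young libraries in separate runs, each with all guides. Host age and that numbering therefore cannot be told apart with any guide. The median reads in peaks were 12619906 in aged and 16950434 in young libraries.

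Elsewhere in the cluster the age calls were mostly lower in aged hosts. For the OTC mean 13 of the 37 peaks were called, 4 higher and 9 lower, where 36.5% of all peaks were called; the share is near that of the 37, and the median was -0.17 against 0.00 over all. The start peak of Slamf7 fell by 0.57 ± 0.09 (SE, adjusted p = 2.0e-07); in Tterm it read 191 and 158 in aged and 273, 290.1 and 278 in young hosts. The start peaks of Cd48 (-0.31 ± 0.08 (SE, adjusted p = 5.7e-04)) and Slamf1 (-0.31 ± 0.10 (SE, adjusted p = 0.006)) were lower too. So were the Slamf1 body peaks at 21.9 kb (-0.41 ± 0.07) and 26.3 kb (-0.33 ± 0.09), Cd48 at -4.36 kb (-0.48 ± 0.12), Slamf7 at 11.8 kb (-0.39 ± 0.10), and 2 Ly9 peaks. The stronger Ly9 peak (-0.22 ± 0.08) was not called without any 1 of 7 of the 14 libraries (-0.26 to -0.18). Its call was also lost with quantile normalization and with 1 difference per state, and that of the Slamf1 start peak with 1 difference per state. Outside Slamf6, the higher peaks were Cd48 at 2.98 kb (0.42 ± 0.09 (SE, adjusted p = 4.3e-05)) and the strong Slamf7 peak (0.11 ± 0.04), the latter not called without the second young OTC Tprog library (0.09 to 0.13 over left-out libraries), with quantile normalization (0.06) or with 1 difference per state.

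The 3 OTC states had 7, 8 and 8 of the 37 peaks called for age in Tprog, Ttran and Tterm, where 15.4%, 18.3% and 18.9% of all peaks were called. With Zfp219, 15 peaks were called for the mean over states, 2 higher and 13 lower (30.3% of all), and with Dusp5 17, 2 higher and 15 lower (31.8%). In both, the 2 higher peaks were Slamf6 at -1.44 kb and 21.8 kb. Slamf1 at 21.9 kb, the strongest Slamf1 peak, was called lower in aged hosts in 8 of the 9 combinations of state and guide, with log2 changes of -0.67 to -0.24 over the 9. No Cd84 peak was called for the OTC mean, while Cd84 at 1.02 kb was lower in aged hosts with Zfp219 (-0.28) and Dusp5 (-0.39).

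**Figure D3:**
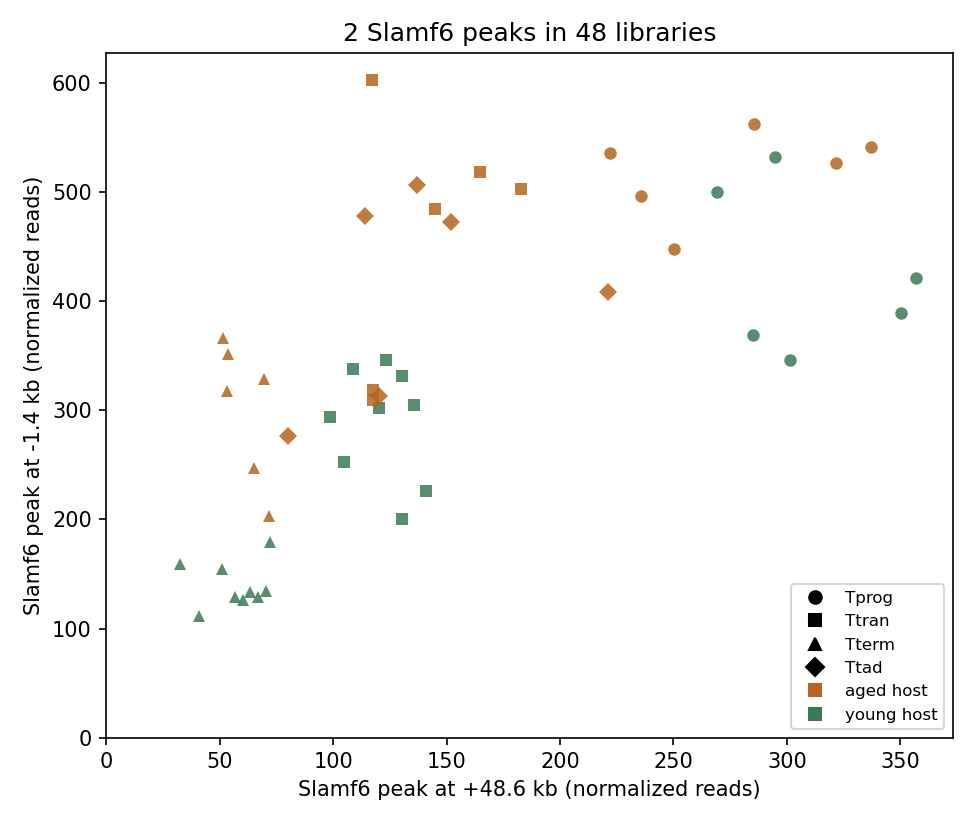
Normalized reads at the Slamf6 peak at -1.44 kb (vertical axis) against those at 48.6 kb (horizontal axis) in 48 libraries, both linear from 0, with state by symbol and host age by colour. The Tterm libraries of both ages share the same range at 48.6 kb, while at -1.44 kb all aged Tterm libraries lie above all young Tterm libraries.

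The difference between Tprog and Tterm at -1.44 kb was itself smaller in aged hosts. In OTC cells the test of that difference gave -0.86 ± 0.20 (SE, adjusted p = 0.007), the only 1 of the 37 peaks called (2.32% of all peaks). It was not called without the first aged OTC Tprog library or the second aged OTC Tterm library (-0.98 to -0.75). With Dusp5 the value was -1.07 ± 0.20 (SE, adjusted p = 1.3e-04), 1 of 4 peaks called (7.92%), and with Zfp219 it was -0.47 ± 0.20 (SE, adjusted p = 0.37), with 0 of the 37 called by limma or by edgeR and 4 at an unadjusted p under 0.05 (0.525% of all peaks called). With Dusp5 the Tprog libraries read 536 and 542 in aged and 533 and 500.3 in young hosts, and the Tterm libraries 329 and 352 against 129, 179 and 159. The ages thus differed in Tterm and lay close in Tprog. The other 3 peaks called with Dusp5 were weak or middling: Slamf7 at -7.40 kb (2.77), Cd48 at -9.08 kb (2.02) and Slamf1 at 13.4 kb (-0.97).

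Zfp219 encodes a zinc finger protein. With its guide, the Slamf6 peak at -1.44 kb was lower in aged hosts than with the control guide. In aged Ttad it read 313 and 276 with Zfp219 and 478 and 506 with OTC, and in aged Ttran 318 and 309 against 603 and 485. In aged Tterm it read 203 and 248 against 318 and 367. The libraries of the guides did not overlap in these 3 states. The changes were -0.74 ± 0.15 (SE, adjusted p = 3.5e-04) in Ttad, -0.78 ± 0.15 (SE, adjusted p = 6.4e-05) in Ttran and -0.60 ± 0.15 (SE, adjusted p = 0.009) in Tterm. In aged Tprog, at 448 and 496 against 527 and 562, they did not overlap either, but the change of -0.21 ± 0.15 (SE, adjusted p = 0.59) was not called. Whether the effect in Tprog differed from that in the other states was not tested. Of the 37 peaks, 2 were called in Ttad (8.23% of all peaks), 6 in Ttran (14.2%), 2 in Tterm (3.57%) and 1 in Tprog (2.56%).

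Over the 4 aged states, 11 of the 37 peaks were called with Zfp219, 4 higher and 7 lower, where 25.8% of all peaks were called. Slamf6 at -1.44 kb had the largest called fall (-0.58 ± 0.08 (SE, adjusted p = 9.2e-10)), and Slamf6 at 21.8 kb fell by 0.35 ± 0.08 (SE, adjusted p = 3.6e-04). The other 4 Slamf6 peaks were not called, with -0.10 ± 0.09 over the start. The peak at -4.59 kb of Slamf1 fell by 0.41 ± 0.06 (SE, adjusted p = 8.4e-08) and the first Ly9 peak changed by -0.48 ± 0.10 (SE, adjusted p = 4.8e-05), while Slamf1 at 15.5 kb, Cd48 at 2.98 kb and Slamf7 at -3.92 kb changed by -0.34, -0.29 and -0.34. The start peaks of Slamf7 (0.28 ± 0.08 (SE, adjusted p = 0.008)) and Cd48 (0.26 ± 0.07 (SE, adjusted p = 0.003)) rose, as did Slamf7 at 11.8 kb and the weak Cd48 peak at -9.08 kb (0.63 ± 0.23 (SE, adjusted p = 0.036)). With 1 difference per state, an alternative chosen after seeing the data, the 4 rises were no longer called (0 higher and 5 lower, 14.6% of all peaks called). The weak Cd48 call was lost without any 1 of 9 of the 16 libraries (0.45 to 0.80), and Slamf7 at -3.92 kb without the first aged OTC Ttad, the second aged Zfp219 Tprog or the first aged Zfp219 Ttad library (-0.39 to -0.29). The age and the Zfp219 comparisons share the aged OTC libraries, so these values are set side by side only. Against the Dusp5 guide, a comparison without OTC libraries, the aged Zfp219 mean at -1.44 kb was -0.52 ± 0.08 (SE, adjusted p = 8.7e-08) (7 of the 37 peaks called, 22.3% of all), with -0.30 at 3.92 kb and -0.37 at 48.6 kb also called.

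In young hosts 3 of the 37 peaks were called for the Zfp219 mean, all lower (7.07% of all peaks). They were Slamf6 at 21.8 kb (-0.33 ± 0.08 (SE, adjusted p = 0.004)), Cd48 at -4.36 kb (-0.43 ± 0.11 (SE, adjusted p = 0.009)) and Slamf1 at -4.59 kb (-0.20 ± 0.06 (SE, adjusted p = 0.033)), the last lost without any 1 of 9 of the 16 libraries (-0.25 to -0.16). With 1 difference per state 0 of the 37 peaks were called, where that fit called 1.48% of all peaks. At 21.8 kb young Tprog read 273 and 267 with Zfp219 and 383 and 333 with OTC, and young Tterm 153, 129.9 and 134 against 189, 156 and 193. The -1.44 kb mean of -0.15 ± 0.08 (SE, adjusted p = 0.26) was not called, although young Ttran alone was lower, with a change of -0.46 ± 0.12 (SE, adjusted p = 0.012) (1 of the 37 peaks, 5.88% of all). Against Dusp5, the young Zfp219 mean at -1.44 kb was -0.40 ± 0.08 (SE, adjusted p = 1.0e-04) (3 of the 37 called, 8.16%).

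The Zfp219 effect differed between ages at 6 of the 37 peaks, where 9.11% of all peaks were called. At Slamf6 -1.44 kb the effect was more negative in aged hosts, with a difference of -0.38 ± 0.12 (SE, adjusted p = 0.023). That call was lost without the second aged OTC Tterm, the first aged OTC Ttran, the first aged Zfp219 Tprog, the first aged Zfp219 Tterm or the first young Zfp219 Tprog library (-0.43 to -0.33). At 21.8 kb the effects of the 2 ages differed by -0.01 ± 0.12 (SE, adjusted p = 0.98) and were not called as different. The other peaks more negative in aged hosts were Slamf7 at -3.92 kb (-0.76 ± 0.17 (SE, adjusted p = 0.001)), the first Ly9 peak (-0.53), Slamf1 at 11.2 kb (-0.53) and Cd48 at 2.98 kb (-0.41), and Cd48 at -4.36 kb was more positive (0.68 ± 0.17 (SE, adjusted p = 0.005)). Without the first aged Zfp219 Tterm library the count was 3. The Cd48 2.98 kb call was lost without the first aged OTC Tprog, the first aged OTC Tterm or the first aged Zfp219 Tterm library (-0.47 to -0.34).

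**Figure D4:**
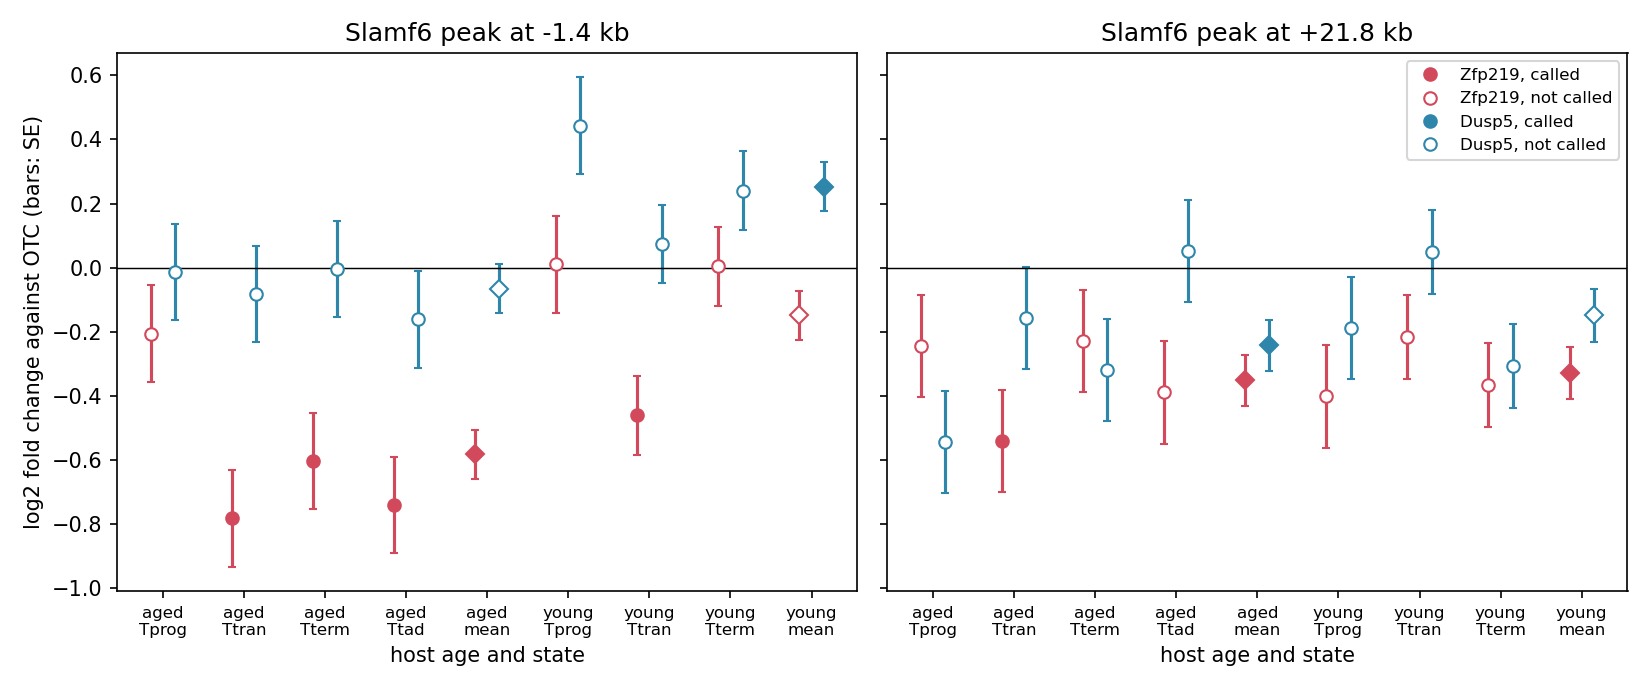
Log2 fold change against OTC (vertical axis, bars: SE) at the Slamf6 peaks at -1.44 kb and 21.8 kb for the Zfp219 and Dusp5 guides, by host age and state (circles) and for the mean over states (diamonds); filled symbols passed the test. At -1.44 kb the Zfp219 values of aged Ttran, Tterm and Ttad lie between -0.78 and -0.60, and those of Dusp5 in aged hosts lie near 0.

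Dusp5 encodes a phosphatase that inactivates the kinase ERK in the nucleus. With its guide, 7 of the 37 peaks were called for the aged mean, 3 higher and 4 lower (18.9%, against 12.2% of all peaks). For the young mean 2 were called, both higher (5.41%, against 3.82%). At Slamf6 the aged calls were limited to 21.8 kb (-0.24 ± 0.08 (SE, adjusted p = 0.031)), lost without any 1 of 8 of the 16 libraries (-0.30 to -0.19). The aged difference at -1.44 kb was -0.07 ± 0.08 (SE, adjusted p = 0.64), not called. In young hosts the -1.44 kb peak was higher by 0.25 ± 0.08 (SE, adjusted p = 0.042), lost without any 1 of 12 of the 16 libraries (0.22 to 0.29); in Tprog it read 533 and 500.3 with Dusp5 and 389.7 and 369.6 with OTC. Slamf7 at -3.92 kb was higher with Dusp5 in young hosts by 0.45 ± 0.11 (SE, adjusted p = 0.009), lost, among the left-out libraries, without the second young Dusp5 Tprog library (0.38 to 0.52), and in aged hosts by 0.31 ± 0.11 (SE, adjusted p = 0.049), lost without any 1 of 11 of the 16 libraries (0.21 to 0.41). Slamf1 at -4.59 kb was lower in aged hosts, with a change of -0.24 ± 0.06 (SE, adjusted p = 0.004) and kept the call without each library in turn. With 1 difference per state, an alternative chosen after seeing the data, none of the aged or young Dusp5 calls was kept (0 of 37 peaks in each). That fit called few peaks anywhere, 3.22% of all peaks for the aged and 1.11% for the young mean. Leaving out 1 library took the aged count to between 2 and 7 and the young count to between 0 and 3.

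The Dusp5 effect differed between ages at 2 of the 37 peaks (4% of all peaks): Cd48 at 2.98 kb (-0.46 ± 0.12 (SE, adjusted p = 0.013)) and Slamf1 at -4.59 kb (-0.31 ± 0.09 (SE, adjusted p = 0.043)), both more negative in aged hosts. The first was lost without the first aged Dusp5 Tterm, the second aged Dusp5 Ttran or the first aged OTC Tterm library (-0.54 to -0.39), and the second without any 1 of 19 of the 28 libraries (-0.34 to -0.27). At Slamf6 -1.44 kb the difference was -0.29 ± 0.12 (SE, adjusted p = 0.16), not called.

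**Figure D5:**
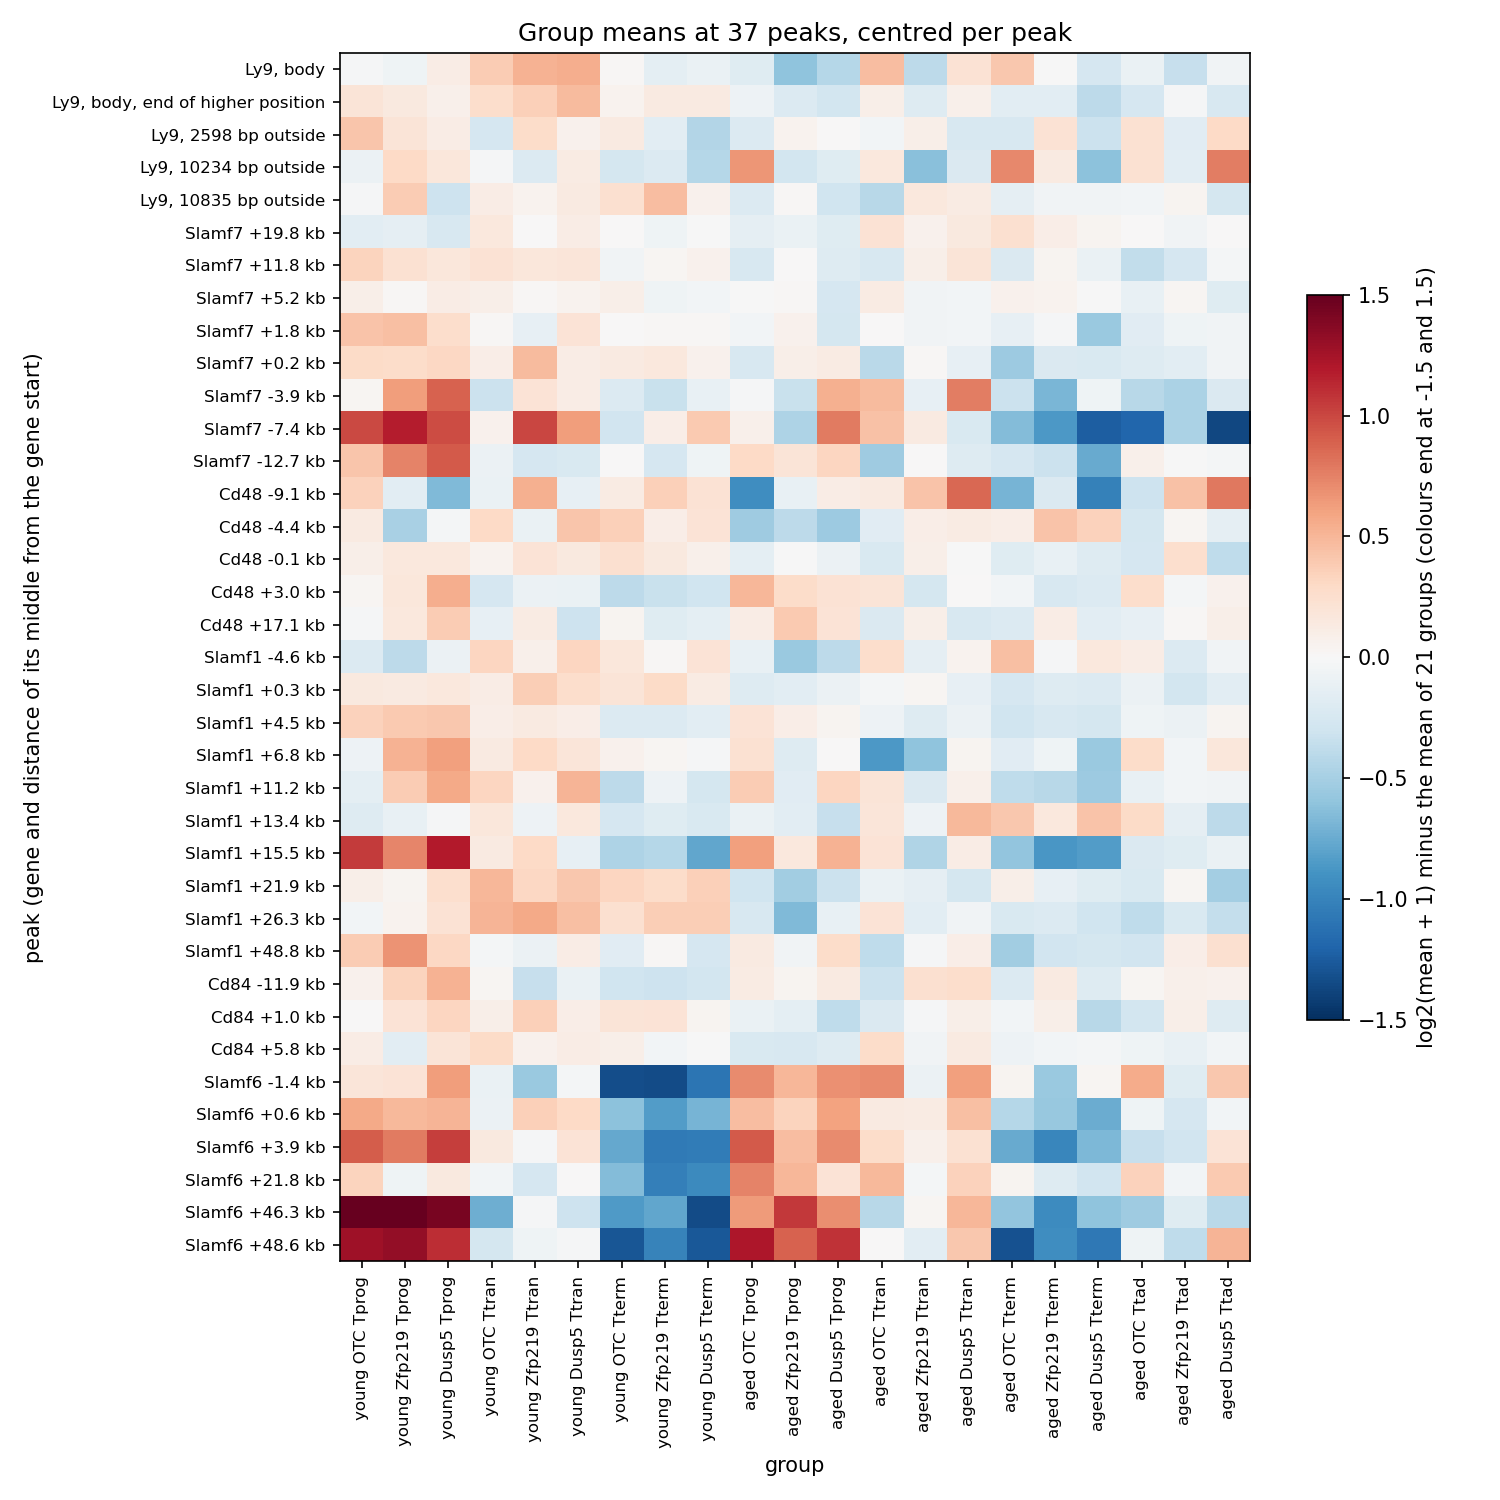
Group means at the 37 peaks (rows, by gene and distance from the gene start) in 21 groups (columns), as log2(mean + 1) minus the mean of the 21 groups; red is higher and blue lower. The Slamf6 rows at the foot change from red in Tprog to blue in Tterm, and in the rows at -1.4 and 21.8 kb each aged mean is above the young mean of the same state and guide, in some pairs only slightly.

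Summed over its peaks, Slamf6 was the member whose total moved most in the state and age comparisons of OTC cells given here. The total rose in Tprog over Tterm by 1.07 ± 0.08 in aged hosts (25% of 15017 gene totals called) and 1.52 ± 0.07 in young hosts (34.6%). In Ttad it was 0.47 ± 0.08 above Tterm (12.1% called) and -0.60 ± 0.08 relative to Tprog (11.2%). The Slamf7 total was lower than in Tterm in aged Tprog (-0.17 ± 0.05) and in aged Ttad (-0.15 ± 0.05), both called. For age the Slamf6 total changed by 0.40 ± 0.04 (43%), with Slamf1 at -0.15 ± 0.03 and Cd84 at -0.16 ± 0.06. For aged Zfp219 the Slamf6 total changed by -0.33 ± 0.04 (36.8%), with Slamf1 at -0.16 ± 0.03 and Ly9 at -0.14 ± 0.05. Of the 6 member totals limma called 0 for Zfp219 (14.7% of gene totals) or Dusp5 (9.23%) in young hosts, with 1 and 0 at an unadjusted p under 0.05, and for aged Dusp5 Ly9 and Slamf1 were lower (20.6%).

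Of 25 genes of SLAM signalling listed with the members, 24 had a peak, and they moved in both directions. In aged OTC Tprog against Tterm 1 was higher and 7 were lower (8 of 24, with 25% of gene totals called), and in young hosts 8 were higher and 4 lower (12 of 24, with 34.6%). Cd244a, the receptor for CD48, was lower in Tprog, with log2 changes of -0.99 ± 0.13 (SE, adjusted p = 6.0e-11) in aged and -1.19 ± 0.12 (SE, adjusted p = 1.2e-16) in young hosts, the opposite direction to Slamf6. Zbtb16, the zinc finger factor of innate-like T cells, a lineage that needs SAP, was lower, with a change of -0.89 ± 0.21 in aged hosts and was also called lower in young ones. Bcl10, an adapter to NF-kB downstream of antigen receptors, was higher in Tprog by 0.25 ± 0.07 and 0.38 ± 0.06. Ttad differed from Tprog at 3 of these genes (11.2% of gene totals called), all higher, Cd244a among them (0.73 ± 0.13 (SE, adjusted p = 4.6e-06)), and from Tterm at 1 (12.1%), Bcl10 (0.22 ± 0.07).

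For age 2 of the 24 were higher and 8 lower in the OTC mean, where 43% of gene totals were called. Sh2d1a, which encodes SAP, was lower in aged hosts, with a change of -0.39 ± 0.07 (SE, adjusted p = 2.6e-07), Prkcq, a kinase downstream of the T cell receptor, changed by -0.43 ± 0.02 (SE, adjusted p = 1.1e-40) and Cd244a changed by -0.45 ± 0.07 (SE, adjusted p = 1.2e-08). Nfkb1, an NF-kB subunit, was higher by 0.53 ± 0.02 (SE, adjusted p = 5.1e-51) and Ptpn11, which encodes the phosphatase SHP-2, by 0.28 ± 0.03 (SE, adjusted p = 2.2e-12). With Zfp219 in aged hosts 5 were higher and 5 lower (36.8% of gene totals called), among them Ptpn11 (-0.33 ± 0.03), Nfkb1 (-0.30 ± 0.02) and Prkcq (0.23 ± 0.02). In young hosts 1 was higher and 9 lower (14.7%). With Dusp5 the counts were 1 higher and 11 lower in aged (20.6%) and 2 higher and 7 lower in young hosts (9.23%). Sh2d1a was not called by limma in any of these guide comparisons.

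Across the 21 group means, the Slamf6 peaks were compared by pattern, given as a description with no test. The same libraries gave the 2 sets by age, so the r values are no separate support for them. With the -1.44 kb peak, Pearson's r was 0.92 for 21.8 kb, and 0.75, 0.73, 0.72 and 0.60 for 3.92 kb, 48.6 kb, the start and 46.3 kb. In that order, these stood at percentiles 99.8, 95.9, 95.1, 94.6 and 88.9 of r among all peaks. With the 48.6 kb peak, r was 0.96 for 3.92 kb, 0.92 for the start and 0.72 for 21.8 kb. Among other members, Cd48 at 2.98 kb was closest to the -1.44 kb peak (r = 0.83), and Slamf1 at 15.5 kb and 4.46 kb were closest to the 48.6 kb peak (0.90 and 0.86). Outside the cluster the 5 peaks most like the -1.44 kb peak were assigned to B3gnt2 (0.968), Dhrs3 (0.968), Itgb1 (0.966), Bcat1 (0.964) and Arhgef37 (0.963). The points share their libraries and size factors.

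Genes flanking the cluster within 300 kb, Cd244a among them, had 40 peaks. In aged OTC Tprog against Tterm 11 of them were called, 4 higher and 7 lower, with a median of 0.10 (20.1% of all peaks called), and in young hosts 12, with 6 in each direction and a median of 0.02 (26.5%). For age 14 were called, 10 higher and 4 lower (36.5%), and for aged Zfp219 10, 6 higher and 4 lower (25.8%). No test of the cluster against its flanks was made.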

How the data were processed

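ATAC-seq of 48 libraries was used as 1 table of signal per peak and library. The deposited signal is reads divided by a library size factor, and multiples of 1 read gave whole numbers for 100% of values within 0.001 reads. Bowtie2 2.2.9, Picard 2.8.0, SAMtools 1.3.1, MACS2 2.1.1, DESeq2 1.28.1 and the build mm10 are named in the submitters' processing notes, without settings, so the effect of peak calling and filters on these values is not known here. Titles gave each library's group and number.

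Peaks were assigned with RefSeq GRCm38.p6. Signal was tested as log2(value + 1) with limma 3.58.1 (R 4.3.3; 21 group means, 27 residual degrees of freedom, intensity trend), with Benjamini-Hochberg adjustment over 53868 peaks, or over 15017 gene totals, and a threshold of 0.05. A difference of effects was a contrast in the same fit. edgeR 4.0.16 on the recovered reads, other scalings, a pseudocount of 8, filters, a threshold of 0.01, a fit of the compared groups alone, the replicate block and leaving out each library were alternatives; Python 3.11.15 made the summaries. The fit was tested on simulated data. All 37 peaks passed into the tests, without a filter on low values. The peaks named are all of Slamf6, each other member's strongest and start peaks, and the called peaks with the largest rise and fall in a comparison; further peaks and the signalling genes given with values were chosen after their values were seen.

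Members and lists were chosen with earlier results of these data known. Same-numbered libraries of different groups did not deviate together, with correlations of -0.017 to 0.021, so the numbers were not taken as pairs. Within groups, pairs of libraries differed by 2.83 to 4.63 times the sampling noise (chi-square per degree of freedom, 33 pairs), so none was a repeat deposit.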

Additional observations from a re-analysis of the deposited data

Results flagged for a closer look

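Several effects at single peaks differed between young and aged hosts by a test of the difference itself, given here as differences of log2 fold changes, aged minus young, with no explanation. The gap between Tprog and Tterm at the Slamf6 peak at -1.44 kb was smaller in aged hosts by -0.86 with OTC and by -1.07 with Dusp5. With Dusp5 that gap also differed at Slamf7 -7.40 kb (2.77), Cd48 -9.08 kb (2.02) and Slamf1 13.4 kb (-0.97). The first 2 of these 3 peaks are weak, with means of 33.5 and 36.9 normalized reads.

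The effect of the Zfp219 guide differed between ages at Slamf6 -1.44 kb (-0.38), the first Ly9 peak (-0.53), Slamf7 -3.92 kb (-0.76), Cd48 2.98 kb (-0.41), Slamf1 11.2 kb (-0.53) and Cd48 -4.36 kb (0.68). The Dusp5 effect differed at Cd48 2.98 kb (-0.46) and Slamf1 -4.59 kb (-0.31). The aged Zfp219 and Dusp5 effects share the OTC libraries, as do the young ones. No group held 4 or more libraries, so single libraries were not tested for standing apart.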

How the results depend on the processing

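Of 60 named called values, 29 kept their call under each alternative and each left-out library that was run; 40 of 508 alternative fits and 141 of 726 left-out fits lost the call, and 0 reversed. Counts of called peaks stayed within 1.5 times in 100 alternatives and moved in 25, and the causes were not tested. The restriction to gene bodies only counts fewer peaks of the same fit, 23 of the 37. With gene-body peaks only, the count fell from 14 to 9 (aged Tprog against Tterm), 11 to 6 (young), 3 to 0 (Ttad against Tterm), 1 to 0 (that gap by age), 3 to 1 (young Zfp219), 2 to 1 (young Dusp5) and 2 to 1 (Dusp5 by age). At a threshold of 0.01 it was 1 for Ttad against Tterm, 7 for aged Zfp219, 1 for aged and 1 for young Dusp5, 2 for Zfp219 by age and 0 for Dusp5 by age. Quantile normalization, which moved the median of all peaks by at most 0.065, gave 2 for aged Dusp5 (1 higher, 1 lower, against 3 and 4), 1 for young Dusp5 and 1 for Dusp5 by age. Young Zfp219 rose from 3 to 5 without the weakest 25% of peaks, with edgeR and TMM, and with edgeR and the authors' factors; aged Dusp5 was 4 with those factors and 2 when fitted alone. A fit with 1 difference per state, chosen after seeing the data, gave 5 for aged Zfp219, 0 for young Zfp219, 0 for aged and 0 for young Dusp5. In that order, it called 14.6%, 1.48%, 3.22% and 1.11% of all peaks.

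Leaving out 1 library gave 8 to 12 (aged Tprog against Tterm), 9 to 12 (young), 1 to 2 (Ttad against Tterm), 3 to 4 (Ttad against Tprog), 11 to 14 (age), 0 to 1 (Tprog gap by age), 9 to 11 and 2 to 4 (aged and young Zfp219), 2 to 7 and 0 to 3 (aged and young Dusp5), 3 to 8 (Zfp219 by age) and 0 to 3 (Dusp5 by age). With the replicate block, although the numbers were not taken as pairs, young Tprog against Tterm had 9 calls, aged Dusp5 5 and age 14. No count moved by over 1.5 times. That block ended 3 calls at single peaks: young OTC Tprog against Tterm at the strong Slamf7 peak (-0.16) and at Cd48 2.98 kb (0.37), and aged Dusp5 at Slamf7 -3.92 kb (0.31). Depth limits the weak peaks: Slamf6 46.3 kb had 2 to 102 reads per library.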
